A study of Mus musculus with 3 samples.

Results

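Gene-dense bins are the 10 kb bins of the autosomes that overlap 3 or more protein-coding genes of the RefSeq annotation of GRCm38, with bins that hold an Olfr, Vmn or Pcdh gene left out. There were 559 such bins among 239486 autosomal bins (0.233%), after 64 bins with olfactory, vomeronasal or protocadherin genes had been set aside from 623. All 559 had a value in every library. The 5-hydroxymethylcytosine (5hmC) level of each bin was available for 3 libraries of mouse cerebellum, with 1 library per group. They are cerebellum labelled chronic sleep deprivation, profiled by DDD-seq, cerebellum labelled normal/control, profiled by ACE-seq, and cerebellum labelled normal/control, profiled by DDD-seq. Strain, age, sex and the number of animals are not stated in the labels, and the column names of the DDD-seq pair end in "all", which may mean that runs or animals were pooled. The table holds no expression values, so the tissue label was not checked against marker genes.

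Both assays place a sugar on 5hmC to shield it and then deaminate the cytosines that lack it, so that the shielded cytosines are still read as C. DDD-seq deaminates double-stranded DNA, and its deaminase is SsdAcat. ACE-seq is known as an APOBEC-coupled method, but the labels give it the protocol text of the DDD-seq libraries. In the genome, 5hmC is made from 5-methylcytosine by TET dioxygenases. It is abundant in neurons, where it is known to mark the bodies of expressed neuronal genes, and it is scarce at CpG-rich promoters, which are mostly unmethylated. Stretches packed with genes hold mainly short genes, many of them with housekeeping roles, and neighbouring genes there often share one promoter region.

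The 559 bins held 1472 protein-coding genes, of which 109 carried predicted names (Gm or Rik). Their median length was 6.55 kb, against 17.5 kb for all 20665 autosomal protein-coding genes, and 2.65% of them reached 100 kb, against 11.2% of all. Exactly 3 genes were found in 505 bins, 4 genes in 38 bins and 5 or more in 16 bins. The bins fell into 450 runs of adjacent bins, of which 389 were single bins. The longest run, of 15 bins on chromosome 1, was the Ugt1a locus, where glucuronosyltransferase genes that conjugate bilirubin and drugs overlap along a shared stretch, and 13 of the 16 bins with 5 or more genes lay there. A further 27 bins, all in one stretch of the genome, counted as dense through 3 predicted genes, Gm37013, Gm38666 and Gm38667. Gm37013 spans 889.2 kb and overlaps 57 genes with Pcdh names, so these 27 bins lie between protocadherin genes and their density comes from overlapping long gene models. The means of the dense bins, the values by gene length and by cover, the rank agreement and the differences between libraries are given with and without both loci.

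The 250 bases before the listed start of 6 genes are shown first, because these genes start inside the highest and the lowest gene-dense bins and show how much promoters there can differ. They are examples and not all the starts in these bins. They are RefSeq sequences of GRCm38.p6, 5′ to 3′ on the gene's own strand, and every CG dinucleotide is in capitals. In the highest bins, Rnf133 (chr6:23650306-23650555, minus strand) and Rnf148 (chr6:23655137-23655386, minus strand) encode RING finger proteins and lie inside the gene Cadps2. Gpr75 (chr11:30885108-30885357, plus strand) encodes an orphan G protein-coupled receptor.
Rnf133: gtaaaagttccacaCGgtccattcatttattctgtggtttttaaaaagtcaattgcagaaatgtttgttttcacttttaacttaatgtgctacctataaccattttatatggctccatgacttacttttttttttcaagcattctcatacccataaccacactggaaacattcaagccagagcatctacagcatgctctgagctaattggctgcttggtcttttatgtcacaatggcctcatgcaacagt
Rnf148: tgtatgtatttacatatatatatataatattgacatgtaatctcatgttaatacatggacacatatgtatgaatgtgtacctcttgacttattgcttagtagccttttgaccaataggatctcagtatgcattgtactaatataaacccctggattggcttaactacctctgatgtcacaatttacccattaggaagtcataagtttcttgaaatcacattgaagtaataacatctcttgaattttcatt
Gpr75: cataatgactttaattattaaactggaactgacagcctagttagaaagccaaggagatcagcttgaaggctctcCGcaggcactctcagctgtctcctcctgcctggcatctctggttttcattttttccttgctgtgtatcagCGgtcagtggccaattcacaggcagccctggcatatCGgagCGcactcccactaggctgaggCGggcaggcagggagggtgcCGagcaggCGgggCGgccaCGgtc

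In the lowest bins, Tmed6 (chr8:107065645-107065894, minus strand) encodes a protein of the p24 cargo receptor family, Mrpl41 (chr2:24975099-24975348, minus strand) a subunit of the mitochondrial ribosome, and Pnpla7 (chr2:24975783-24976032, plus strand) a lysophospholipase.
Tmed6: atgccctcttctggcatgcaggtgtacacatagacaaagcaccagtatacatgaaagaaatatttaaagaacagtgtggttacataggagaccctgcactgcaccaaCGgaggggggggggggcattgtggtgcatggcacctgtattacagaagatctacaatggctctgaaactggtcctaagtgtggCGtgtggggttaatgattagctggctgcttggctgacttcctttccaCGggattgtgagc
Mrpl41: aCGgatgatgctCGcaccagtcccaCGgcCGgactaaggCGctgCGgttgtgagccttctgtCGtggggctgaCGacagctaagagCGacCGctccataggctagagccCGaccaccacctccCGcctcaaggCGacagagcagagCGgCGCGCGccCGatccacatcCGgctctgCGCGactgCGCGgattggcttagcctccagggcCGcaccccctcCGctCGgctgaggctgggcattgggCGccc
Pnpla7: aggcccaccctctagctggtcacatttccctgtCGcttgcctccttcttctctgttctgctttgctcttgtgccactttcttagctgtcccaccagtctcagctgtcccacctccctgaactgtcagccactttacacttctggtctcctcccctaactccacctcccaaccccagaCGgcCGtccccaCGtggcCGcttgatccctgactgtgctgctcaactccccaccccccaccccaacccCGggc

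The number of CG dinucleotides in these windows was 1 for Rnf133, 0 for Rnf148 and 9 for Gpr75 in the highest bins. It was 3 for Tmed6, 27 for Mrpl41 and 6 for Pnpla7 in the lowest. A further start in a lowest bin, that of Trp53tg5, had 1. So few windows do not compare the highest bins with the lowest. The motif CG reads the same on both strands, the median over 20085 listed starts of autosomal protein-coding genes was 10, and 93.7% of the starts held at least 1.

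Gene-dense bins carried less 5hmC than other bins of the autosomes. Their mean level was 1.23% in the sleep-deprived library, 1.21% in the ACE-seq control and 1.26% in the DDD-seq control. Bins with 1 or 2 genes had means of 1.77%, 1.73% and 1.77% in the same libraries. Bins with no protein-coding gene, which are low in 5hmC as a class, had 1.40%, 1.34% and 1.38%, so that the bins with the most genes lay below the bins with none. The standard error (SE) over the 559 bins was 0.0138, 0.0159 and 0.0158 points and describes scatter between bins, not between animals. With 1 library per group no test was possible, and each library is given on its own.

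Against bins with 1 or 2 genes, the dense bins differed by -0.540 ± 0.0141 points for the sleep-deprived library, -0.515 ± 0.0162 in the ACE-seq control and -0.514 ± 0.0161 in the DDD-seq control (SE over bins). As a difference of medians the gap was -0.307, -0.292 and -0.300 points, and against the bins with 1 or 2 genes within 100 kb of a dense bin it was -0.172, -0.148 and -0.149 points. No background was subtracted from the fractions here. As listed, the mean of the dense bins was 0.695, 0.702 and 0.710 times that of bins with 1 or 2 genes. It was lower on 19 of 19 autosomes in all 3 libraries. Most dense bins were on chromosome 7 with 64, chromosome 11 with 57 and chromosome 17 with 52. Against gene-free bins, the difference was -0.166 ± 0.0139, -0.130 ± 0.0160 and -0.126 ± 0.0159 points. Here the dense bins were lower on 18 autosomes in the sleep-deprived library, 16 in the ACE-seq control and 16 in the DDD-seq control. Chromosome 12, with 9 dense bins, was above its gene-free bins in every library. The position below gene-free bins depended on the bound, since with 2 or more genes the class lay above them by 0.0139, 0.0582 and 0.0468 points in the 3 libraries. With 5 or more genes, which are mostly the Ugt1a bins, it lay above them by 0.0159 points in the ACE-seq control.

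**Figure D1:**
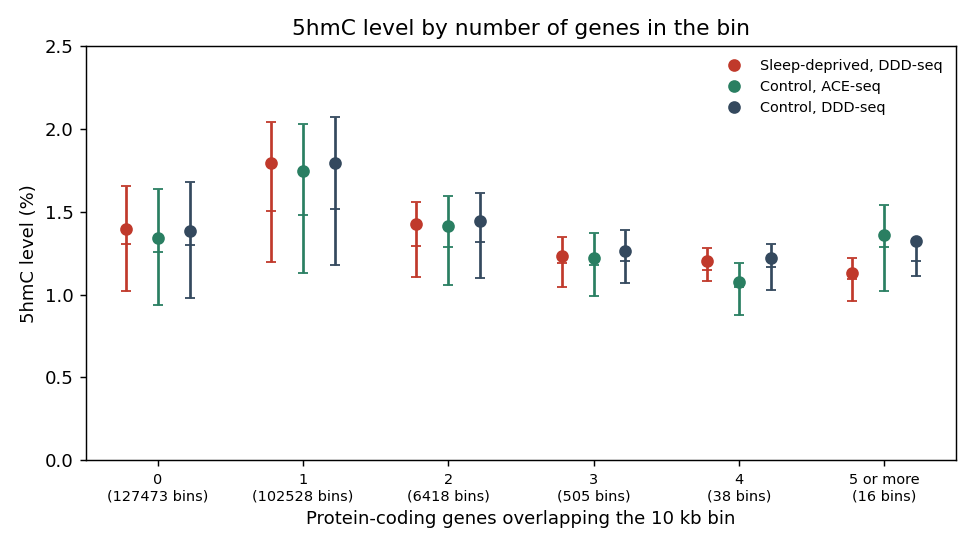
5hmC level (%) of autosomal 10 kb bins by the number of protein-coding genes they overlap, in 3 libraries; points are means, short bars medians and vertical lines run between the quartiles of the bins. Bins with 1 gene are highest, with a mean of 1.79% in the DDD-seq control, and bins with 3 genes have 1.26%.

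Level and gene number were not related in one direction. Bins with 1 gene had the highest means, 1.79% in the sleep-deprived library, 1.75% in the ACE-seq control and 1.79% in the DDD-seq control. Bins with 2 genes, just outside the bound, had 1.43%, 1.42% and 1.45%, and bins with exactly 3 genes, just inside it, 1.24%, 1.22% and 1.26%. With 4 genes the means were 1.20%, 1.07% and 1.22%.

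The dense bins were also more alike than the broad classes of other bins. The standard deviation over bins was 0.326 points in the sleep-deprived library, 0.376 in the ACE-seq control and 0.373 in the DDD-seq control. It was 1.02, 1.06 and 1.11 points over bins with 1 or 2 genes, and 0.624, 0.705 and 0.654 over gene-free bins. Some similar bins were nearly as alike. Where 2 or more genes had CpG-rich starts (defined below) and all were under 100 kb, dense bins had 0.261, 0.365 and 0.292 points. Bins with 1 or 2 genes of that kind had 0.298, 0.416 and 0.347. With all genes under 10 kb, dense bins had 0.225, 0.259 and 0.219, against 0.471, 0.575 and 0.542. The quartiles of the dense bins were 1.04% and 1.34% for sleep deprivation, 0.985% and 1.37% for the ACE-seq control, and 1.07% and 1.38% for the DDD-seq control. A level of 2% or more in all 3 libraries was found in 6 of 559 dense bins, that is 1.07%, against 8.94% of all autosomal bins with values. It was found in 15.5% of bins with 1 or 2 genes and in 3.44% of gene-free bins. A total of 389 dense bins (69.6%) lay below the median of bins with 1 or 2 genes in every library, and 32 (5.72%) lay above it in every library. Of the bins with 1 or 2 genes themselves, 29.7% lay below their own median in every library.

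The order of the dense bins among themselves agreed less between libraries than that of bins with 1 or 2 genes, and about as much as that of gene-free bins. Across the 559 bins, Spearman's rho was 0.362 between the sleep-deprived and the control DDD-seq library, 0.320 between ACE-seq and DDD-seq controls and 0.329 between the sleep-deprived and the ACE-seq library. Over bins with 1 or 2 genes it was 0.665, 0.634 and 0.650, over a wider range of levels, and over gene-free bins 0.369, 0.335 and 0.349. Over the 517 dense bins outside the Ugt1a and protocadherin loci it was 0.377, 0.344 and 0.347. Bins are not replicates, and neighbouring bins share genes. The deposited table gives no coverage, so the part of read depth in these values was not tested.

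The gap to bins with 1 or 2 genes differed with the length of the genes. Where every gene of the bin was under 10 kb, 125 dense bins had means of 1.20% in the sleep-deprived library, 1.12% in the ACE-seq control and 1.17% in the DDD-seq control. Bins with 1 or 2 genes of that length had 1.25%, 1.22% and 1.25%. The gap between the classes was therefore far smaller among bins of short genes than over all bins. In dense bins whose longest gene had 20 to 50 kb the means were 1.25%, 1.22% and 1.27%, over 149 bins, and bins with 1 or 2 genes had 1.49%, 1.45% and 1.50%.

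In bins with 1 or 2 genes the level was higher the longer the longest gene. It reached 1.96% in the sleep-deprived library, 1.91% in the ACE-seq control and 1.96% in the DDD-seq control where that gene was over 100 kb. In dense bins the level also differed with length, but by less: 87 dense bins with a gene over 100 kb had 1.26%, 1.31% and 1.35%. Without the Ugt1a and protocadherin loci, the 45 that were left had 1.44%, 1.42% and 1.49%. So the gap between the classes was widest at the longest genes, also without these loci. A dense bin entered this length class at an overlap of at least 1 bp, and some lie mostly outside their long gene. For example, Scmh1 ends at 120530200 in a dense bin from 120530001 to 120540000. Dense bins inside long genes and at their edges were not separated.

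**Figure D2:**
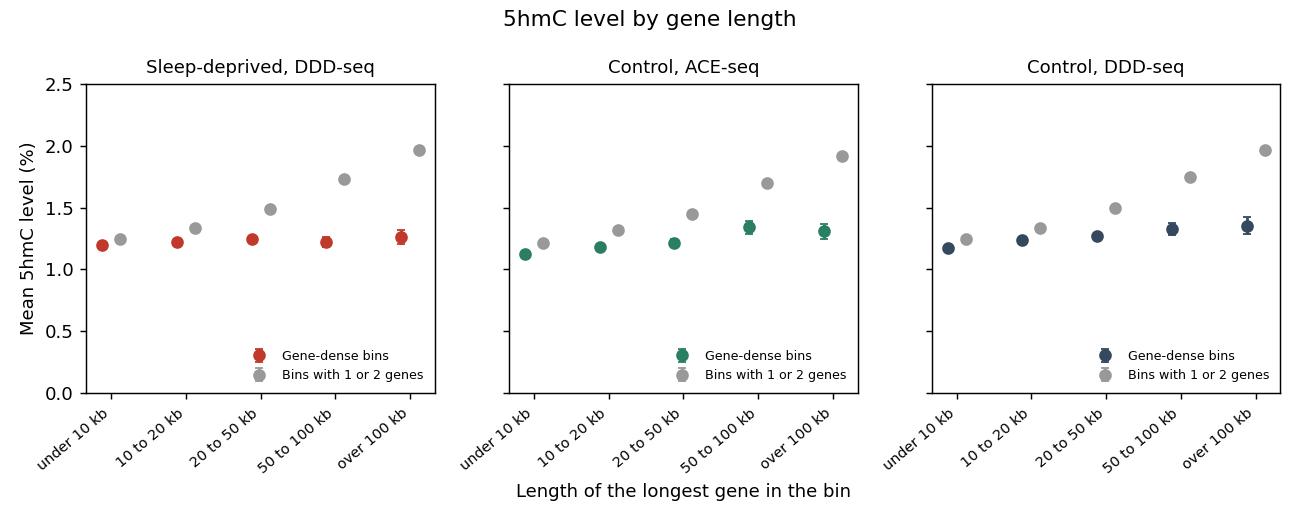
Mean 5hmC level (%) by the length of the longest gene in the bin, for gene-dense bins (coloured) and bins with 1 or 2 genes (grey), in 3 libraries; bars are SE over bins. The grey points climb to 1.96% in the DDD-seq control at genes over 100 kb, where the dense bins have 1.35%.

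The difference in level was also present among bins that genes covered to the same extent. The median dense bin was covered over 92.8% of its length, and 134 were covered in full. Fully covered dense bins had means of 1.25% in the sleep-deprived library, 1.27% in the ACE-seq control and 1.35% in the DDD-seq control. The 93 of them outside the Ugt1a and protocadherin loci had 1.33%, 1.31% and 1.41%. Fully covered bins with 1 or 2 genes had 1.90%, 1.84% and 1.90%. Among bins of up to 50% cover, 42 dense bins had 1.23%, 1.14% and 1.16%, and bins with 1 or 2 genes 1.34%, 1.31% and 1.35%.

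Starts of genes were CpG-richer in dense bins than elsewhere. RefSeq promoter windows of 300 bases were found for 1188 of the 1472 genes. Of 916 listed starts inside dense bins, 514 (56.1%) were CpG-rich, here meaning an observed over expected CpG ratio of at least 0.6 and at least 50% G and C. The share was 46.5% of all 20085 starts. The level in dense bins did not follow the number of such starts. Dense bins with none had 1.21% in the sleep-deprived library, 1.20% in the ACE-seq control and 1.25% in the DDD-seq control, and the 21 bins with 3 or more had 1.24%, 1.25% and 1.18%. In bins with 1 or 2 genes the levels were 1.80%, 1.75% and 1.80% with no CpG-rich start and 1.39%, 1.41% and 1.42% with 1. With 2 they were 1.36%, 1.43% and 1.42%, against 1.24%, 1.26% and 1.28% in dense bins with 2. The promoter table does not hold every gene, so bins without a listed start can still contain one. This concerns 117 dense bins, with 1.18%, 1.24% and 1.27%, which count among those with no CpG-rich start. The bins of the protocadherin locus are among them, and values by starts were not taken without that locus.

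The surroundings of the dense bins were low as well, and the dense bins were the lowest point. In the 100 kb on each side, leaving out other dense bins, the mean was 1.34% in the sleep-deprived library, 1.30% in the ACE-seq control and 1.35% in the DDD-seq control, taken around the 532 dense bins with at least 5 flanking bins. The dense bin minus its flanks averaged -0.104 ± 0.0144, -0.0803 ± 0.0164 and -0.0832 ± 0.0162 points (SE over bins). It was below its flanks in 349, 328 and 336 of the 532 bins, or 65.6%, 61.7% and 63.2%. Flanks of neighbouring dense bins overlap.

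**Figure D3:**
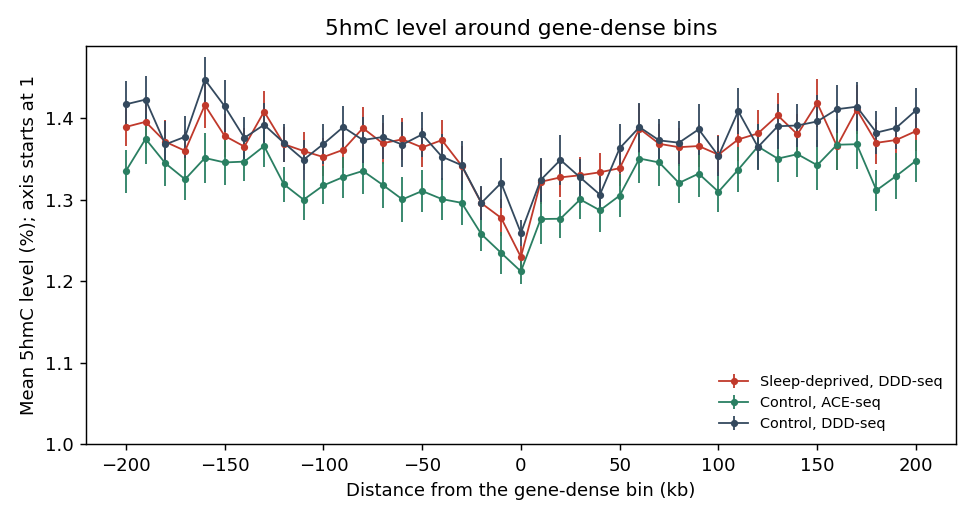
Mean 5hmC level (%) in bins at a given distance (kb) from gene-dense bins, other dense bins left out, in 3 libraries; bars are SE over bins and the level axis starts at 1%. The lowest mean of each line is at distance 0, with 1.23% in the sleep-deprived library, 1.21% in the ACE-seq control and 1.26% in the DDD-seq control.

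Some dense bins are short genes set inside or beside one long gene, which allows a comparison with the other bins of that gene. A bin was counted with a gene at an overlap of at least 1 bp, so a dense bin can lie mostly outside the long gene. For 31 genes of at least 100 kb with a dense bin and at least 5 other bins, the dense bins minus the remaining bins of the gene had a median of -0.137 points in the sleep-deprived library, -0.148 in the ACE-seq control and -0.150 in the DDD-seq control. The dense bins were lower in every library for 11 genes and higher in every library for 5. The largest gap was at Csnk1g1, a casein kinase gene, where the dense bin had 1.02% and the remaining 14 bins averaged 2.99% in the sleep-deprived library. These values were 1.41% and 2.54% in the ACE-seq control, and 1.26% and 2.72% in the DDD-seq control. At Camta1, which encodes a calcium-responsive transcription activator, the dense bin had 1.53%, 1.20% and 1.40%, below the 1.70%, 1.63% and 1.65% of its other 81 bins. Csnk1g1 spans 65908968 to 66045015, and its dense bin 65900001 to 65910000. Camta1 spans 151059523 to 151861768, and its dense bin 151050001 to 151060000. Most of both dense bins therefore lies outside the named gene. Csnk1g1 and Camta1 were singled out after their values were seen, and some of the 31 genes share bins with each other.

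Of the 10 highest dense bins 6 held a gene of over 100 kb, as did 4 of the 10 lowest, all 4 in the protocadherin locus, against 15.6% of all dense bins. The bin with the highest mean over the libraries was on chromosome 11 (79510001 to 79520000), with Evi2, Evi2b and Nf1. Nf1 encodes neurofibromin, a GTPase-activating protein, and the Evi2 genes are read from the other strand within one of its introns. Its level was 3.32% in the sleep-deprived library, 2.68% in the ACE-seq control and 4.83% in the DDD-seq control. All 3 values exceeded the upper quartile of bins with 1 or 2 genes, but they spread over more than 2 points. The next bin of Nf1 had 2.11%, 1.16% and 2.31%, and the following one 1.35%, 1.55% and 1.59%.

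Second was the bin of Cadps2, Rnf133 and Rnf148 on chromosome 6 (23650001 to 23660000), with 3.63% in the sleep-deprived library, 3.07% in the ACE-seq control and 3.17% in the DDD-seq control. Cadps2 encodes a protein of dense-core vesicle release that is expressed in cerebellar granule cells. The other 58 bins of Cadps2 averaged 3.42%, 3.62% and 3.56%, so the dense bin was above the gene around it in the sleep-deprived library and below it in both controls. The CG-poor starts of Rnf133 and Rnf148, printed above, lie in it.

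The bin of Adam4, Cox16 and Gm20498 on chromosome 12 (81410001 to 81420000) owed its rank to 1 library, with 1.94% in the sleep-deprived library, 3.71% in the ACE-seq control and 1.56% in the DDD-seq control. By contrast, that of Erlec1, Gpr75 and Psme4 on chromosome 11 (30880001 to 30890000) had 2.60%, 2.34% and 2.20%, with all 3 close together. Psme4 encodes the proteasome activator PA200. Trim23, Trappc13 and Shld3, on chromosome 13 (104170001 to 104180000), shared a bin with 2.14%, 2.24% and 2.25%, and Trim23 encodes a ubiquitin ligase with an ARF domain.

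Among the other highest bins, that of Sdha, the flavoprotein subunit of succinate dehydrogenase, with Ccdc127 and Lrrc14b had 1.84% in the sleep-deprived library, 2.77% in the ACE-seq control and 2.30% in the DDD-seq control. That of Gng3, a G protein gamma subunit gene of neurons, with Bscl2 and Hnrnpul2 had 2.40%, 1.95% and 2.49%. A bin of the Ugt1a locus (chromosome 1, 88160001 to 88170000) had 1.88%, 2.33% and 2.65%, and one of Arhgap26 with Fgf1 and Gm5820 on chromosome 18 had 2.08%, 1.44% and 3.03%. The next bin in order, of Eif2ak2, Gm26637 and Sult6b1, had 2.26%, 2.40% and 1.82%. The mean over libraries changed little across this bound, at 2.18% inside and 2.16% outside.

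**Figure D4:**
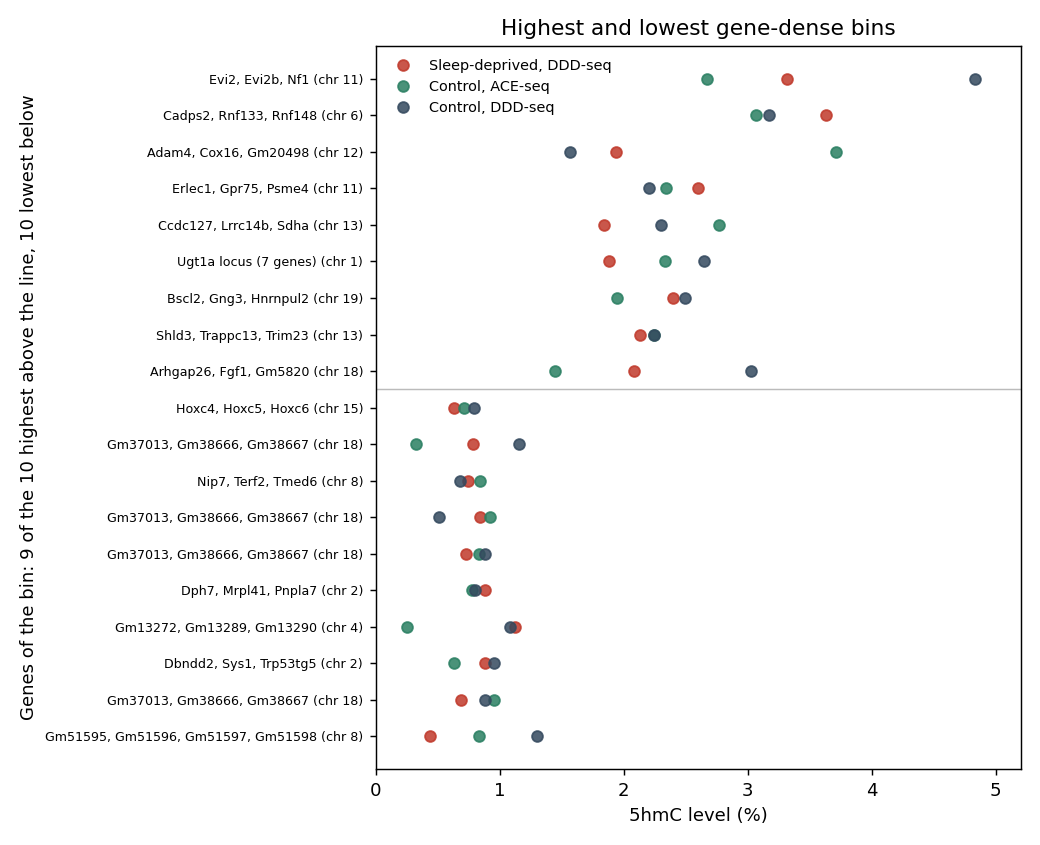
5hmC level (%) of 9 of the 10 highest gene-dense bins (above the line) and the 10 lowest above 0 in every library (below it), chosen by the mean of the 3 libraries; each point is 1 library. The Cadps2 bin lies between 3.07% and 3.63%, the Evi2 and Nf1 bin spreads from 2.68% to 4.83%, and the lowest bins lie at or below 1.30%.

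Among dense bins above 0 in every library, the lowest was that of Hoxc4, Hoxc5 and Hoxc6 on chromosome 15 (103010001 to 103020000), with 0.633% in the sleep-deprived library, 0.712% in the ACE-seq control and 0.792% in the DDD-seq control. Hox genes encode transcription factors that set position along the body axis in the embryo. The bin of Nip7, Terf2 and Tmed6 on chromosome 8 (107060001 to 107070000) had 0.743%, 0.838% and 0.683%, and Terf2 encodes a protein that binds telomeres. That of Dph7, Mrpl41 and Pnpla7 on chromosome 2 (24970001 to 24980000) had 0.878%, 0.778% and 0.800%. The 3 libraries gave similar values in each of these bins. On the same chromosome, the bin of Dbndd2, Sys1 and Trp53tg5 had 0.882%, 0.631% and 0.955%, and Sys1 encodes a Golgi trafficking protein. The remaining 6 of the 10 lowest consisted of predicted genes, 4 of them in the protocadherin locus. Those on chromosome 4 (Gm13272, Gm13289 and Gm13290) had 1.12%, 0.255% and 1.08%, and those on chromosome 8 (Gm51595 to Gm51598) had 0.435%, 0.831% and 1.30%, so the libraries did not give them 1 level. Similar copies may share their reads, which was not tested, and the depth is unknown, so these values are uncertain.

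The bins with the most genes were all in the Ugt1a locus. A bin with 9 genes (88200001 to 88210000), which also holds the chaperone gene Dnajb3, had 1.20% in the sleep-deprived library, 1.59% in the ACE-seq control and 1.20% in the DDD-seq control. The next bin, also with 9 genes, among them Ugt1a1 for the enzyme that conjugates bilirubin, had 1.14%, 0.864% and 1.18%. The bin with 8 genes, where Mroh2a begins to overlap, had 1.12%, 1.26% and 0.834%. Over all 15 dense bins of the locus, the means were 1.13%, 1.38% and 1.32%. The 27 bins of the protocadherin locus, on chromosome 18, had 1.04%, 1.08% and 1.14%, and every value of 0 among the dense bins was there, 1 in the ACE-seq control and 2 in the DDD-seq control. One of these bins (37380001 to 37390000) had the lowest mean of all dense bins, with 0.398%, 0.260% and 0%. Without both loci, the 517 other bins had 1.24%, 1.21% and 1.26%.

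Gene families were looked up in the dense bins by their symbols, so a family can take in genes that only share its symbol. Of 29 families, 12 were found in at least 5 dense bins, 13 in 1 to 4 and 4 in none, which were serpins, kallikreins, epidermal Lce and Sprr genes, and glutathione transferases. The median over all dense bins was 1.18% in the sleep-deprived library, 1.17% in the ACE-seq control and 1.20% in the DDD-seq control. Among the 12 families with at least 5 dense bins, Hox genes had the lowest medians for sleep deprivation and for ACE-seq, with 0.925% and 0.898%, and 0.999% in the DDD-seq control, over 5 bins. All 5 lay below the median of dense bins by the mean over libraries. Their highest bin, of Hoxa3, Hoxa5 and Hoxa6, had 0.925%, 1.05% and 1.20%.

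The families for ribosomes, respiration and the proteasome had medians on both sides of the dense-bin median. The cytosolic ribosomal protein family had medians of 1.16% in the sleep-deprived library, 1.20% in the ACE-seq control and 1.24% in the DDD-seq control over 14 bins. These took in the bin of Rps6kb2, a kinase gene and not a ribosomal protein gene, with 0.981%, 1.18% and 1.34%. The highest bin of the family, with Rps27, Rab13 and Nup210l, had 1.42%, 1.74% and 1.44%. The lowest, with Rps2, Rpl3l and Ndufb10, had 0.976%, 1.07% and 0.925%. Mitochondrial ribosomal protein genes had 1.13%, 1.18% and 0.953% over 9 bins, from the Mrpl34 bin with 1.41%, 1.23% and 1.59% to the Mrpl41 bin given above. The family of respiratory complex I had medians of 1.24%, 1.30% and 1.13% over 8 bins. Its symbols took in Ndufaf3, which encodes an assembly factor and not a subunit, in a bin with 1.34%, 1.41% and 1.38%. The highest bin of the family was that of Ndufa2, Ik and Tmco6, with 1.33%, 1.61% and 1.54%. The proteasome family had medians of 1.21%, 1.35% and 1.38% over 7 bins. It ran from the Psme4 bin above to that of Psmb10, an immunoproteasome subunit gene, with 1.07%, 1.03% and 1.02%. Its symbols took in Psme3ip1 and Psmc3ip, which do not encode proteasome subunits. The Psme3ip1 bin had 0.955%, 1.42% and 1.38%, and the Psmc3ip bin 1.19%, 1.54% and 1.12%. Medians without these bins were not taken.

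Histone genes, which package DNA and sit in clusters of short intronless copies, were found in 15 dense bins with 45 of the 80 autosomal genes matched. Their medians were 1.15% in the sleep-deprived library, 1.18% in the ACE-seq control and 1.20% in the DDD-seq control. The highest bin, with H2ac18, H2ac19 and H3c14 on chromosome 3, had 1.55%, 1.78% and 1.25%, and the lowest, with H1f6, H2bc4 and H4c3 on chromosome 13, had 0.954%, 0.932% and 1.02%. Reads from the nearly identical histone copies may be shared between them, which was not tested, so these values are uncertain. Heat shock and J-domain chaperone genes had medians of 1.31%, 1.15% and 1.18% over 10 bins. Hsp90ab1, a constitutive chaperone gene, lay in their highest bin with 1.54%, 1.66% and 1.61%, and Hspb9 with Kat2a and Rab5c in their lowest, with 0.914%, 0.832% and 1.02%. RAB genes of vesicle traffic had 1.27%, 1.30% and 1.17% over 9 bins, and share the highest and lowest bin with families above.

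Zinc finger genes named Zfp, Zscan or Zkscan had medians of 1.38% in the sleep-deprived library, 1.18% in the ACE-seq control and 1.29% in the DDD-seq control over 8 bins. Their highest bin, with Zfp119b, Ebi3 and Yju2, had 2.37%, 2.05% and 2.01%, and their lowest, with Zfp628, Nat14 and Ssc5d, 1.08%, 0.872% and 1.08%. The solute carrier family had 1.13%, 1.14% and 1.30% over 19 bins, from the bin of Slc35g2 and Nck1 with 1.63%, 2.16% and 2.62% to that of Slc34a3 and Tubb4b with 1.004%, 0.668% and 1.30%. Its symbols took in Slc9a3r1 and Slc9a3r2, which do not encode solute carriers. The Slc9a3r1 bin had 1.09%, 1.13% and 1.49%, and the Slc9a3r2 bin 1.44%, 1.14% and 1.15%. Medians without both bins were not taken. Tmem genes had 1.21%, 1.23% and 1.23% over 24 bins. The highest of these, with Cntn2, a cell adhesion gene of neurons, had 2.07%, 1.44% and 2.43%, and the lowest, with Deaf1, Eps8l2 and Tmem80, had 1.26%, 0.795% and 0.997%. Potassium channel genes were in 5 dense bins, with 5 of 92 autosomal genes, and had medians of 1.16%, 1.22% and 1.19%. Their highest bin by the mean over libraries held Kcnh4 and Hcrt, the gene of the wake-promoting peptide hypocretin, with 1.08%, 0.993% and 1.78%, so that its rank came from the DDD-seq control. Their lowest, with Kcnab3, had 1.17%, 1.15% and 1.11%. In the 13 families with at most 4 bins, single bins ranged from 0.898% to 2.14%, from 0.668% to 2.24% and from 0.291% to 2.25%.

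The sleep-deprived library was set against the DDD-seq control within the dense bins. Their mean was 1.23% after sleep deprivation, against 1.26% in the control, a difference of -0.0296 ± 0.0137 points (SE over bins), with 252 bins higher and 307 lower. Over the 517 bins outside the Ugt1a and protocadherin loci it was -0.0212 ± 0.0129 points, with 236 higher and 281 lower. Bins with 1 or 2 genes had a difference of -0.00386 points and gene-free bins 0.0113 points. By chromosome, the dense bins were lower in the sleep-deprived library on 11 of 19 autosomes. No replicate library exists against which to judge differences of this size.

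A difference of at least 1 point was the exception. The sleep-deprived library was higher by that much in 2 of 559 dense bins (0.358%), against 4.51% of all autosomal bins, and lower in 6 (1.07%), against 4.48%. Outside both loci, 1 of 517 bins was higher and 2 were lower. The largest higher bin held Trim30b, Trim12c and Gm38525 on chromosome 7, with 1.84% in the sleep-deprived library, against 0.291% in the DDD-seq control, and the ACE-seq control had 1.01%. Trim30b and Trim12c belong to a family of antiviral genes with similar copies. The bin of Sez6l2, Cdipt and Cdiptos, which stayed under 1 point, had 2.04% in the sleep-deprived library, against 1.18% in the DDD-seq control, with 1.67% by ACE-seq. The same holds for 3 bitter taste receptor genes, Tas2r104, Tas2r105 and Tas2r114, whose bin had 1.47% in the sleep-deprived library, against 0.633% in the DDD-seq control, and 1.22% by ACE-seq. In each of these 3 bins the ACE-seq control also exceeded the DDD-seq control.

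The largest lower bin was that of Evi2, Evi2b and Nf1, with 3.32% after sleep deprivation, against 4.83% in the DDD-seq control, and here ACE-seq gave 2.68%. The other 4 of the 5 largest lay in the protocadherin and Ugt1a loci. The Ugt1a bin had 0.562% in the sleep-deprived library, against 1.91% in the DDD-seq control. Of the 3 protocadherin bins, the lowest differed by -1.38 points, and ACE-seq listed 0 there. A further bin below -1 point, named for its value, held Uqcrb, a subunit of respiratory complex III, with Mterf3 and Gm10767, at 1.07% in the sleep-deprived library, against 2.14% in the DDD-seq control, and 2.01% by ACE-seq. Sleep-deprived values at least 1 point above both other libraries were found in 1 dense bin (0.179%), against 1.75% of all autosomal bins. That bin is in the protocadherin locus, with 1.99% in the sleep-deprived library, 0.985% in the ACE-seq control and 0.858% in the DDD-seq control. Values at least 1 point below both were found in 0 dense bins, against 0.906% of all.

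**Figure D5:**
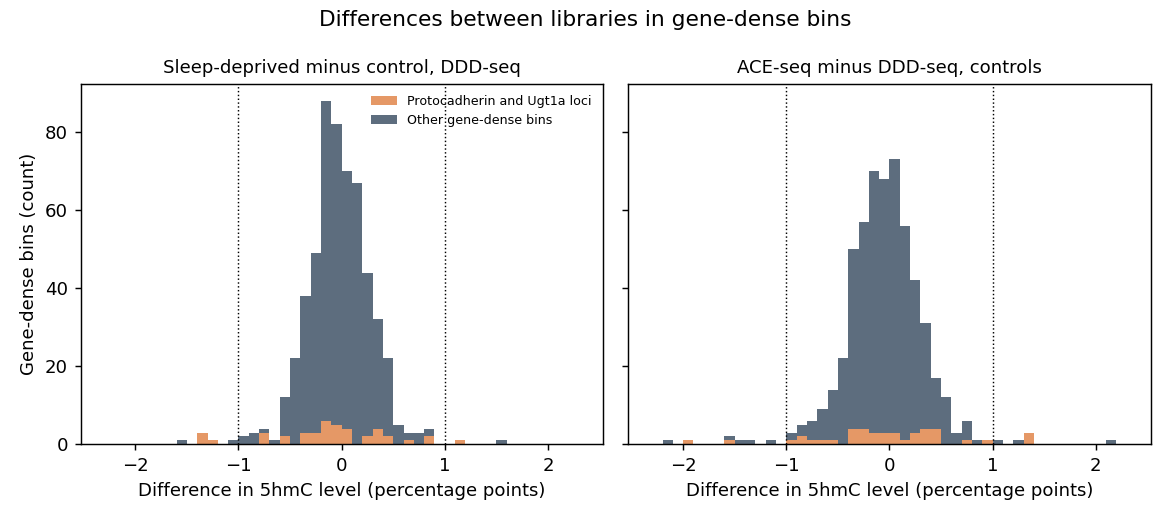
Number of gene-dense bins by the difference in 5hmC level (percentage points), sleep-deprived minus control by DDD-seq (left) and ACE-seq minus DDD-seq in controls (right), in narrow steps; orange bars are the protocadherin and Ugt1a loci, and dotted lines mark 1 point. On the left 2 bins lie above the bound and 6 below it, on the right 6 above and 7 below.

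The ACE-seq control was set against the DDD-seq control in the same way, and both comparisons share the DDD-seq control. Dense bins averaged 1.21% by ACE-seq and 1.26% by DDD-seq, a difference of -0.0472 ± 0.0164 points (SE over bins), with 248 bins higher and 311 lower by ACE-seq. The offset was like that of other bins, which had -0.0471 points with 1 or 2 genes and -0.0432 points without genes. ACE-seq was higher by at least 1 point in 6 dense bins (1.07%), against 4.80% of all autosomal bins, and lower in 7 (1.25%), against 6.06%. Without both loci these were 3 and 5 of 517 bins. The largest higher bin was that of Adam4, Cox16 and Gm20498, by 2.15 points, and the largest lower one that of Evi2, Evi2b and Nf1, by -2.16 points.

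Among the other bins with large differences between the control libraries, the bin of Gm36327, Gm40364 and Gm40365 had 2.01% by ACE-seq and 0.728% by DDD-seq. A Ugt1a bin had 2.36% by ACE-seq and 0.986% by DDD-seq, and both remaining higher bins were in the protocadherin locus. On the lower side, the bin of Arhgap26, a GTPase-activating protein gene, with the growth factor gene Fgf1 had 1.44% by ACE-seq and 3.03% by DDD-seq. The bin of the predicted genes Gm35257, Gm52233 and Gm52260 had 0.256% by ACE-seq and 1.67% by DDD-seq, and the other 2 of these 5 were protocadherin bins. Of the 10 bins with the 5 largest differences in each direction in this comparison, 5 were in the protocadherin or Ugt1a locus. The standard deviation of the difference was 0.765 points over the protocadherin bins, against 0.355 over the dense bins outside both loci.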

How the data were processed

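The deposited table gives, per the file headers, a 5hmC fraction for each 10 kb bin and library, multiplied here by 100 to give percent. The tools listed are FastQC, Trimmomatic and the bisulfite aligner Bismark, per the submitters' processing notes. How bins were filtered was not stated. The notes name hg19, but the samples are mouse, and the last bin of each of 19 autosomes ends 1.33 to 132.3 kb after the last GRCm38 gene, so the bins were read as GRCm38. No counts or coverage accompany the fractions, which leaves the depth unknown. No background was subtracted here, and the share of unshielded cytosines that escaped deamination was not tested. Genes were placed in bins with the RefSeq GRCm38.p6 gene table by an overlap of at least 1 bp. Promoter sequences came from RefSeq GRCm38.p6, for the 1188 genes that matched.

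Means, quartiles and differences in percentage points were computed in Python 3.11.15 with numpy 2.4.6, pandas 2.3.3 and scipy 1.17.1, and the script was tested on simulated data. Errors are SE over bins. Each group is 1 library, so there is no replicate check and no test. A difference was counted when it reached 1 point. Named bins were the 10 highest and 10 lowest by the mean of 3 libraries (the lowest among bins above 0), the 5 with most genes, the 5 largest differences in each direction, and the highest and lowest bin of each family found in at least 5 dense bins. Bins named by other means are said to be so, and 1 of the 10 highest is not reported here. The members and gene lists were chosen with earlier results of these data known. Alternatives changed the gene number, overlap, cover, gene length, neighbourhood, summary and bound.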

Additional observations from a re-analysis of the deposited data

How the results depend on the processing

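The difference between dense bins and bins with 1 or 2 genes was negative under all 15 alternatives in each library, between -0.639 and -0.148 points. Values below are in the order sleep-deprived library, ACE-seq control, DDD-seq control. With 2 or more genes the level was 1.41%, 1.40% and 1.43%, the difference from 1-gene bins -0.381, -0.346 and -0.362 points, and that from gene-free bins turned positive at 0.0139, 0.0582 and 0.0468 points. With 4 or more genes the level was 1.18% in the sleep-deprived library and 1.16% by ACE-seq, with differences of -0.589 and -0.569 points from bins with 1 or 2 genes and -0.216 and -0.184 from gene-free bins; sleep-deprived minus control was -0.0712 and ACE-seq minus DDD-seq -0.0940 points. With 5 or more genes the levels were 1.13%, 1.36% and 1.32%, the differences from bins with 1 or 2 genes -0.639, -0.369 and -0.452 points and those from gene-free bins -0.266, 0.0159 and -0.0628 points. Sleep-deprived minus control was then -0.192 and ACE-seq minus DDD-seq turned to 0.0355 points. As medians, levels were 1.18%, 1.17% and 1.20%, the differences from bins with 1 or 2 genes -0.307, -0.292 and -0.300 points, and from gene-free bins -0.123 and -0.0875 in the first pair of libraries. The differences from bins with 1 or 2 genes were -0.638, -0.582 and -0.577 points among bins covered to at least 90%, -0.186, -0.203 and -0.186 with genes under 50 kb only, and -0.172, -0.148 and -0.149 against such bins within 100 kb. After subtraction of the mean of other bins, ACE-seq minus DDD-seq was -0.00244 points. The causes of these changes were not tested.

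Counts of bins past 1 point (sleep-deprived higher and lower, ACE-seq higher and lower) were 2, 6, 6 and 7. They were 17, 28, 29 and 44 at 0.5 points, 0, 0, 1 and 1 at 2 points, 1, 3, 2 and 3 with the first bin of each run only, and 1, 2, 3 and 5 without the protocadherin and Ugt1a loci; the last 2 settings were chosen after seeing the data. Of 163 alternative values, 102 stayed close to the reported value, 56 moved further and 5 changed sign. Close meant within a normal confidence limit from the SE over bins or, for counts, within 1.5 times the count. No paired analysis was possible because each group is 1 library, and no replicate could be left out. Unknown depth limits every value.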

Other observations

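Dbp, which encodes a clock-controlled transcription factor, lay in 2 dense bins on chromosome 7 and is named here after its values were seen. The bin with Car11 and Sphk2 had 1.13% in the sleep-deprived library, 1.08% in the ACE-seq control and 1.10% in the DDD-seq control. The bin with Rpl18 and Sphk2 had 0.906%, 1.07% and 1.30%. The 4 adjacent dense bins of Arhgap26 and Fgf1 on chromosome 18 averaged 1.75%, 1.60% and 1.96%, above the dense-bin mean in every library. The remaining 74 bins of Arhgap26 averaged 1.89%, 1.86% and 1.95%. These dense bins were therefore below the rest of the gene in the sleep-deprived library and by ACE-seq, and near it in the DDD-seq control.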
